A study of Mus musculus with 11 samples.

Results

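The DNA replication genes are 40 named genes of the replication machinery, and all 40 were measured among the 19938 genes of the array. They were listed by symbol, and the list was drawn up with earlier results of these data known. Each gene is read by 1 probe set, its brightest on average, and only Pcna and Slbp had a choice of probe sets. The cells were male F1 hybrid mouse embryonic fibroblasts, taken at 13.5 days post coitum and carrying ROSA-rtTA, a doxycycline-dependent transactivator, together with a Nanog-GFP reporter. The mother was ROSA-rtTA homozygous (C57Bl6 backcross) and the father, from a C57Bl6/129SV hybrid intercross, was homozygous for a Nanog-GFP BAC transgene. All groups received a PB-TAC piggyBac transposon with the transposase plasmid pCyL43 by FugeneHD, then ES cell medium with doxycycline at 1 µg/mL from the next day. In 8 constructs (EB-C5, MKOS, OKMS, OKN-HAMS, OK+9MS, OSKM, STEMCCA and WTSI) the transposon held a polycistronic reprogramming cassette, which makes several reprogramming factors from 1 transcript, and these are called the cassettes. In 2 constructs, Klf4S and Klf4L, it held Klf4 alone, and in the control it held lacZ. Both groups were collected on day 6 by sorting for the mCherry reporter of the transposon. The lacZ control was collected on day 2 without sorting, so wherever lacZ is compared, the effects of transgene, day and sorting cannot be told apart. Each construct was measured on 1 array, each from a transfected cell population, and the spread within a group is the spread between constructs. No label says that arrays of a group came from separate cultures beyond the construct, so p-values measure only that spread.

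Replication starts when the origin recognition complex, Cdc6 and Cdt1 load the Mcm2 to Mcm7 helicase onto DNA in G1. Cdc45 and the GINS complex then turn the helicase on, polymerase alpha with primase lays down primers, and polymerases delta and epsilon extend them while held by the Pcna clamp, which the Rfc complex loads. Ribonucleotide reductase and thymidylate synthase supply deoxynucleotides, and histone chaperones package the new DNA. Most of these genes are transcribed at the G1 to S transition under E2F transcription factors, so their RNA is high in dividing fibroblasts and low in resting ones.

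Most of the 40 replication genes read higher in the cassettes than in Klf4 alone. Of the 40 genes, 37 rose and 0 fell (limma, adjusted p under 0.05 over all genes), against 6.35% of all genes called higher and 8.12% called lower. The median log2 difference over the 40 genes was 1.39, where a value of 1 is a 2-fold change, and it was -0.02 over all genes tested. The single differences ran from 0.52 for Rpa1 to 2.75 for Mcm10. For 39 of the 40 genes every cassette array lay above both Klf4 arrays, a separation shown by 12.3% of all genes, and Rfc3 was the exception. Pold1, Rfc2 and Rfc3 did not pass the test. In bulk RNA, fewer replicating cells and less RNA of these genes per cell cannot be told apart.

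The calls rest on 2 Klf4 arrays that lay close together, with an SD of 0.126 for the difference between them over all genes, and each counted as a separate measurement. Without Klf4S, 1 member was called, and 1 without Klf4L, in both cases Mcm6, while the median difference was 1.40 without Klf4S and 1.36 without Klf4L and all 40 differences stayed positive. Over all genes the count went from 2885 to 104 and 92. The test uses 1 spread shared by the groups, which comes mostly from the cassettes. In every fit of the cassettes against Klf4 alone the Klf4 arrays are therefore assumed to vary like the cassettes.

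**Figure D1:**
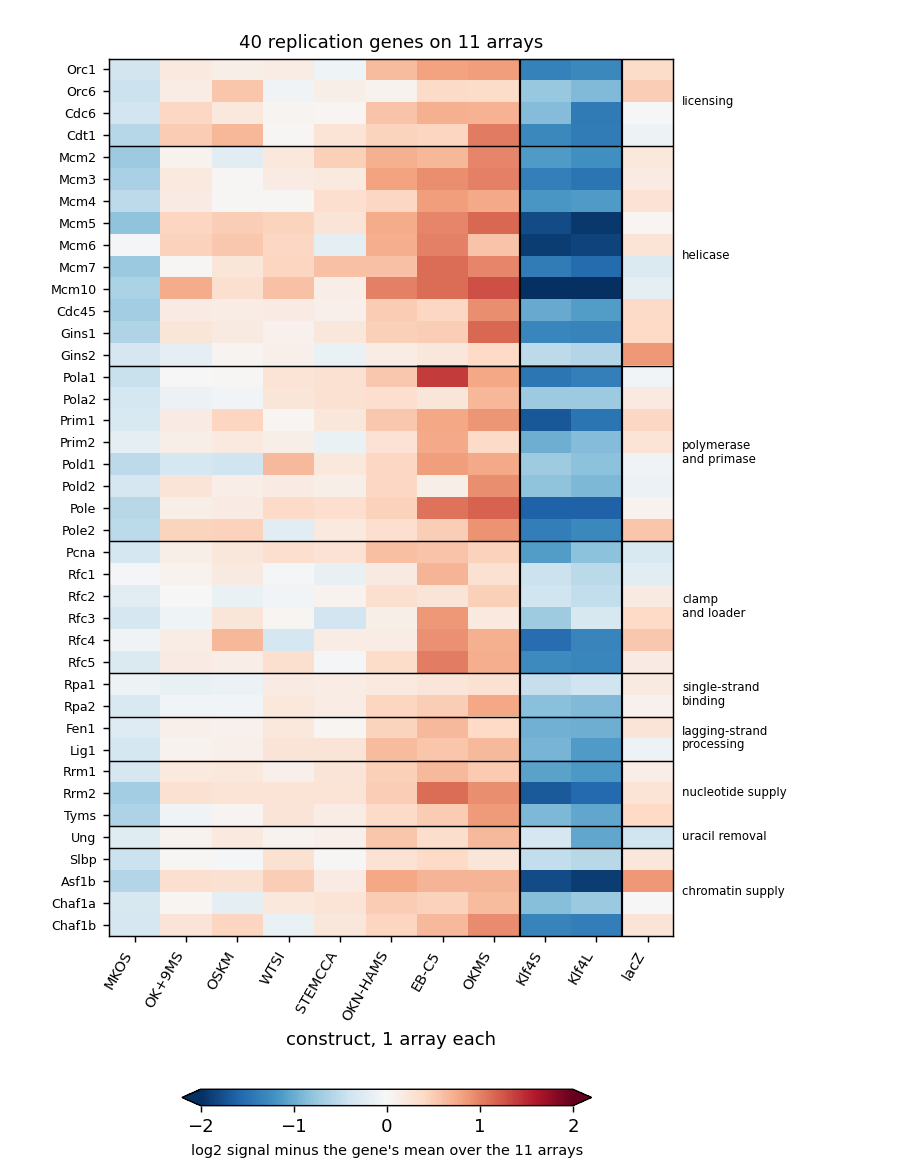
Log2 signal of each of the 40 genes on each of the 11 arrays, as the difference from that gene's own mean over all arrays (colour, from blue below the mean to red above it). Columns are constructs with 1 array each and lines part the 8 cassettes, the 2 Klf4 constructs and lacZ; rows are grouped by role. The 2 Klf4 columns are the lowest in every row but Rfc3 and Ung, MKOS is the lowest cassette in 35 rows, and EB-C5 or OKMS is the highest in 37.

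The 250 bases before the transcription start were read from RefSeq promoters of GRCm38.p6, which held a window for 34 of the 40 members. The E2F-type motif was searched in 4 spellings, TTTCCCGC, TTTCGCGC, TTTGCCGC and TTTGGCGC, on both strands, and hits may overlap each other. At least 1 hit was found in 7 of 34 members (20.6%), against 449 of 15614 genes of the array with a window (2.9%). Some genes have several windows, and a hit in any of them counted. The windows of the members were richer in CpG, with a median of 18 CpG against 11, and among the 5353 genes with at least 18 the share with a hit was 5.0%. A CCAAT box lay in the window of 22 of the 34 members (64.7%), against 38.8% of genes. Of 27 genes with a window from the further replication list below, 5 had an E2F-type hit (18.5%) and 12 a CCAAT box (44.4%). A match is a description of these letters and not a shown binding site. The 7 stretches with a hit are given below because they hold the motif that most other members lack in this window, 5′ to 3′ on the gene's own strand, with the motif in capitals and up to 20 bases on each side within the 250.
Orc1 promoter, chr4:108579407-108579453, forward strand: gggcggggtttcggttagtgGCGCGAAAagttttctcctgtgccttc
Cdc6 promoter, chr11:98907993-98908040, forward strand: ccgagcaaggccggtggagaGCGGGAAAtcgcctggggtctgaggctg
Mcm5 promoter, chr8:75109336-75109387, forward strand: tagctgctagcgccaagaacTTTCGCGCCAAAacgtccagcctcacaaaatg
Mcm6 promoter, chr1:128359725-128359835, reverse strand: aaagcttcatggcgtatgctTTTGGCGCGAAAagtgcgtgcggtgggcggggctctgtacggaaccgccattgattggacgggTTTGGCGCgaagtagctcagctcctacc
Mcm7 promoter, chr5:138172021-138172068, reverse strand: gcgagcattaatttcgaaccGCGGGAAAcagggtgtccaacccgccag
Pola1 promoter, chrX:93632266-93632313, reverse strand: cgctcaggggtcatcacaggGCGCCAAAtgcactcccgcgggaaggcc
Rfc3 promoter, chr5:151651209-151651238, reverse strand: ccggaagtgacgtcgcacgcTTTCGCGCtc
In Mcm5 the motif TTTCGCGC overlaps TTTGGCGC read on the other strand. Mcm6 has such an overlap and another copy of TTTGGCGC nearer the start, which makes 3 hits. The stretches of Orc1, Cdc6, Mcm7 and Pola1 lie inside the RefSeq span of the gene, before a start that is not the outermost. For Orc1 that span begins at 108575705. Mcm7 has another window, which held no hit. The 7 members with a hit had a median difference between the cassettes and Klf4 alone of 1.77, with values from 0.60 for Rfc3 to 2.31 for Mcm5, and the 27 with a window and no hit had a median of 1.28, with values from 0.52 for Rpa1 to 2.75 for Mcm10. The ranges of the 2 sets overlapped, and the difference between them was not tested.

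All 4 licensing genes rose in the cassettes against Klf4 alone. Cdt1, the factor that brings the helicase to origins, read from 9.14 in MKOS through a median of 10.14 to 10.75 in OKMS over the 8 cassettes, with Klf4S at 8.42, Klf4L at 8.31 and lacZ at 9.60. Its difference was 1.69 ± 0.32 (SE, n = 8 against n = 2, limma adjusted p = 0.0125). Orc1, the subunit of the origin recognition complex that comes and goes with the cell cycle, read 6.05 (Klf4S), 6.11 (Klf4L) and 7.77 (lacZ), against 7.04 (MKOS) to 8.25 (OKMS) in the cassettes with a median of 7.58. Klf4 alone was lowest for both genes with no overlap with the cassettes, and the lacZ value lay inside the range of the cassettes. Cdc6, the loading ATPase, read from 7.31 in MKOS through a median of 8.0 to 8.40 in EB-C5 over the 8 cassettes, with Klf4S at 6.82, Klf4L at 6.27 and lacZ at 7.68, a difference of 1.43 ± 0.28. Orc6, another subunit of the origin recognition complex, read 8.85 (Klf4S), 8.73 (Klf4L) and 10.11 (lacZ), against 9.19 (MKOS) to 10.17 (OSKM) in the cassettes with a median of 9.74, a difference of 0.96 ± 0.21. It was the only member with its highest cassette value in OSKM, and only OSKM lay above lacZ. Cdc6 also stood apart in that its 2 Klf4 arrays differed by -0.55 (Klf4L minus Klf4S), more than in any other member except Ung.

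The helicase group held the largest differences, and all 10 genes rose. Mcm10, which helps to start the loaded helicase, read from 8.20 in MKOS through a median of 9.51 to 10.13 in OKMS over the 8 cassettes, with Klf4S at 6.76, Klf4L at 6.55 and lacZ at 8.65. Its difference between the cassettes and Klf4 alone was 2.75 ± 0.43 (SE, limma adjusted p = 0.00622), the largest among the 40 genes. Mcm5, a helicase subunit with overlapping E2F-type motifs in its promoter, read from 9.43 in MKOS through a median of 10.70 to 11.39 in OKMS over the 8 cassettes, with Klf4S at 8.45, Klf4L at 8.30 and lacZ at 10.27, a difference of 2.31 ± 0.40. The MKOS value of Mcm5 stood below the other 7 cassettes, which began at 10.485, yet above both Klf4 arrays. Mcm6, the subunit with 3 motif hits, read from 9.55 in STEMCCA through a median of 10.24 to 10.74 in EB-C5 over the 8 cassettes, with Klf4S at 7.85, Klf4L at 7.88 and lacZ at 10.01. Its difference of 2.31 ± 0.26 had the lowest adjusted p of the 40 genes (0.00181, limma), and in this gene STEMCCA and not MKOS was the lowest cassette. Mcm7, another helicase subunit, read 9.20 (Klf4S), 9.06 (Klf4L) and 10.31 (lacZ), against 9.87 (MKOS) to 11.71 (EB-C5) in the cassettes with a median of 11.11, a difference of 1.87 ± 0.39.

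The other 6 helicase genes rose by less. Differences from Klf4 alone were 1.75 for Mcm3, 1.60 for Gins1, 1.44 for Mcm2, 1.40 for Mcm4, 1.28 for Cdc45 and 0.59 for Gins2, with adjusted p from 0.0167 to 0.0451 (limma). The 4 GINS and Mcm subunits Gins1, Mcm2, Mcm3 and Mcm4 and the activator Cdc45 all had Klf4 arrays below every cassette. Gins2, a subunit of the same 4-protein GINS complex as Gins1, differed in where lacZ lay: it read from 8.75 in MKOS through a median of 9.17 to 9.49 in OKMS over the 8 cassettes, with Klf4S at 8.56, Klf4L at 8.51 and lacZ at 9.97. The lacZ array was therefore above all 8 cassettes for Gins2, which was the case for only 1 other member, Asf1b.

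Of 8 polymerase and primase genes 7 rose. Pole, the catalytic subunit of the leading-strand polymerase epsilon, read from 8.69 in MKOS through a median of 9.60 to 10.43 in OKMS over the 8 cassettes, with Klf4S at 7.63, Klf4L at 7.62 and lacZ at 9.32, a difference of 2.01 ± 0.37 (SE, limma adjusted p = 0.0118). Prim1, the small catalytic subunit of primase, read 6.71 (Klf4S), 6.94 (Klf4L) and 8.81 (lacZ), against 8.10 (MKOS) to 9.27 (OKMS) in the cassettes with a median of 8.72, a difference of 1.91 ± 0.27. Both had a gap of more than 1 between the higher Klf4 array and the lowest cassette. Pola1, the catalytic subunit of polymerase alpha, read from 7.77 in MKOS through a median of 8.51 to 9.61 in EB-C5 over the 8 cassettes, with Klf4S at 6.78, Klf4L at 6.84 and lacZ at 8.17, a difference of 1.77 ± 0.38, and its value in EB-C5 was well above that in any other cassette. Pole2, an accessory subunit of polymerase epsilon, read from 8.04 in MKOS through a median of 8.94 to 9.45 in OKMS over the 8 cassettes, with Klf4S at 7.17, Klf4L at 7.26 and lacZ at 9.12, a difference of 1.60 ± 0.30. Only OKMS exceeded lacZ for Pole2. Prim2 (1.12), Pold2 (1.08) and Pola2 (0.89), accessory subunits of primase and of polymerases delta and alpha, rose by less.

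Pold1, the catalytic subunit of polymerase delta, did not pass the test. It read from 8.28 in MKOS through a median of 9.12 to 9.65 in EB-C5 over the 8 cassettes, with Klf4S at 8.09, Klf4L at 7.98 and lacZ at 8.73, with a difference of 0.97 ± 0.38 (limma adjusted p = 0.111). MKOS, OSKM and OK+9MS lay between 8.28 and 8.45, close to the Klf4 arrays, while the other 5 cassettes began at 9.02. The limma adjusted p over the alternatives of processing and left-out arrays ran from 0.062 to 0.377. Its partner subunit Pold2 was called with a difference of similar size, 1.08 ± 0.24, and a smaller spread between cassettes.

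In the clamp and its loader 4 of 6 genes rose, and the loader subunits were uneven. Pcna, the sliding clamp, read from 11.59 in MKOS through a median of 12.26 to 12.54 in OKN-HAMS over the 8 cassettes, with Klf4S at 10.84, Klf4L at 11.13 and lacZ at 11.63, a difference of 1.24 ± 0.21 (SE, limma adjusted p = 0.00934). Of the loader, Rfc4 read 9.17 (Klf4S), 9.38 (Klf4L) and 11.23 (lacZ), against 10.35 (WTSI) to 11.61 (EB-C5) in the cassettes with a median of 10.84, a difference of 1.71 ± 0.30, and WTSI and not MKOS was its lowest cassette. Rfc5 read from 10.29 in MKOS through a median of 10.81 to 11.59 in EB-C5 over the 8 cassettes, with Klf4S at 9.29, Klf4L at 9.27 and lacZ at 10.74, a difference of 1.59 ± 0.28. Rfc1, the large loader subunit, rose by 0.64 ± 0.18 (adjusted p = 0.0438, limma), reading 8.89 (Klf4S), 8.79 (Klf4L) and 9.12 (lacZ), against 9.17 (STEMCCA) to 10.01 (EB-C5) in the cassettes with a median of 9.45. All 8 cassettes were above lacZ for Rfc1, as they were for only 1 other member, Ung. Rfc2 and Rfc3 did not pass. Rfc2 read from 8.53 in MKOS through a median of 8.81 to 9.24 in OKMS over the 8 cassettes, with Klf4S at 8.37, Klf4L at 8.27 and lacZ at 8.94, a difference of 0.54 ± 0.17 (limma adjusted p = 0.0582). Rfc3 read from 8.69 in STEMCCA through a median of 9.15 to 9.94 in EB-C5 over the 8 cassettes, with Klf4S at 8.37, Klf4L at 8.75 and lacZ at 9.47, a difference of 0.60 ± 0.27 (limma adjusted p = 0.177). STEMCCA and MKOS lay just under Klf4L for Rfc3, the sole overlap between the groups among the members. Over the alternatives the adjusted p ran from 0.0315 to 0.295 for Rfc2, which passed with a filter at the median level and without MKOS, and from 0.113 to 0.652 for Rfc3 (limma).

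Replication protein A coats single-stranded DNA, and the differences of its 2 subunits among the members, both called, were 0.52 ± 0.13 for Rpa1 and 1.07 ± 0.24 for Rpa2 (limma adjusted p = 0.0295 and 0.0212). Rpa1 read from 9.50 in OK+9MS through a median of 9.82 to 9.97 in OKMS over the 8 cassettes, with Klf4S at 9.20, Klf4L at 9.26 and lacZ at 9.84, the narrowest range of the members. Rpa2 read 8.14 (Klf4S), 8.10 (Klf4L) and 9.07 (lacZ), against 8.68 (MKOS) to 9.76 (OKMS) in the cassettes with a median of 9.16. Fen1, the flap nuclease, and Lig1, the ligase, join the pieces of the lagging strand, and both rose. Fen1 read from 8.01 in MKOS through a median of 8.43 to 8.91 in EB-C5 over the 8 cassettes, with Klf4S at 7.31, Klf4L at 7.28 and lacZ at 8.52, a difference of 1.18 ± 0.19. Lig1 read 8.09 (Klf4S), 7.89 (Klf4L) and 8.92 (lacZ), against 8.67 (MKOS) to 9.68 (OKMS) in the cassettes with a median of 9.28, a difference of 1.30 ± 0.24. In all 4 genes the Klf4 arrays lay below every cassette.

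The nucleotide supply genes rose as well, all 3 of 3. Rrm2, the regulated small subunit of ribonucleotide reductase, read from 10.51 in MKOS through a median of 11.50 to 12.33 in EB-C5 over the 8 cassettes, with Klf4S at 9.53, Klf4L at 9.65 and lacZ at 11.48, a difference of 1.99 ± 0.37 (SE, limma adjusted p = 0.0118). Its large subunit Rrm1 read 10.25 (Klf4S), 10.17 (Klf4L) and 11.45 (lacZ), against 10.99 (MKOS) to 11.96 (EB-C5) in the cassettes with a median of 11.55, a difference of 1.37 ± 0.21 with adjusted p = 0.00589 (limma). Rrm2 spread more widely over the cassettes than Rrm1, with an SD of 0.54 against 0.30. Tyms, thymidylate synthase, read from 9.22 in MKOS through a median of 10.04 to 10.69 in OKMS over the 8 cassettes, with Klf4S at 8.93, Klf4L at 8.80 and lacZ at 10.23, a difference of 1.16 ± 0.29. Rrm2b, the reductase subunit that p53 induces, is no member; it read a mean of 7.83 in the cassettes, 7.86 in Klf4 alone and 8.12 in lacZ (limma adjusted p = 0.877 between the first 2 groups). Ung, which cuts uracil out of DNA, read from 7.67 in MKOS through a median of 8.06 to 8.56 in OKMS over the 8 cassettes, with Klf4S at 7.57, Klf4L at 6.87 and lacZ at 7.51, and rose by 0.91 ± 0.23 against Klf4 alone (limma adjusted p = 0.0331). Its 2 Klf4 arrays were the farthest apart of the 40 genes, and Klf4S lay above lacZ.

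The chromatin supply genes all rose, 4 of 4. Asf1b, a histone chaperone of dividing cells, read from 9.59 in MKOS through a median of 10.57 to 10.94 in OKN-HAMS over the 8 cassettes, with Klf4S at 8.39, Klf4L at 8.27 and lacZ at 11.04. Its difference from Klf4 alone was 2.20 ± 0.30 (SE, limma adjusted p = 0.00382), and no cassette reached the lacZ value. Chaf1b, a subunit of the chromatin assembly factor CAF-1, read 7.78 (Klf4S), 7.73 (Klf4L) and 9.37 (lacZ), against 8.77 (MKOS) to 10.05 (OKMS) in the cassettes with a median of 9.45, a difference of 1.66 ± 0.28. Chaf1a, the largest CAF-1 subunit, read from 8.13 in MKOS through a median of 8.69 to 9.07 in OKMS over the 8 cassettes, with Klf4S at 7.59, Klf4L at 7.70 and lacZ at 8.44, a difference of 1.00 ± 0.23. Chaf1b separated the groups more widely than its partner. Slbp, which binds the stem-loop of histone mRNA, read 8.68 (Klf4S), 8.63 (Klf4L) and 9.41 (lacZ), against 8.75 (MKOS) to 9.57 (EB-C5) in the cassettes with a median of 9.31, and its difference of 0.63 ± 0.18 was near the threshold (limma adjusted p = 0.048). It was no longer called with the mean of both Slbp probe sets, quantile normalization, median centring or a variance trend, and the same held for Gins2 under the last 3 of these and for Rfc1 under median centring.

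**Figure D2:**
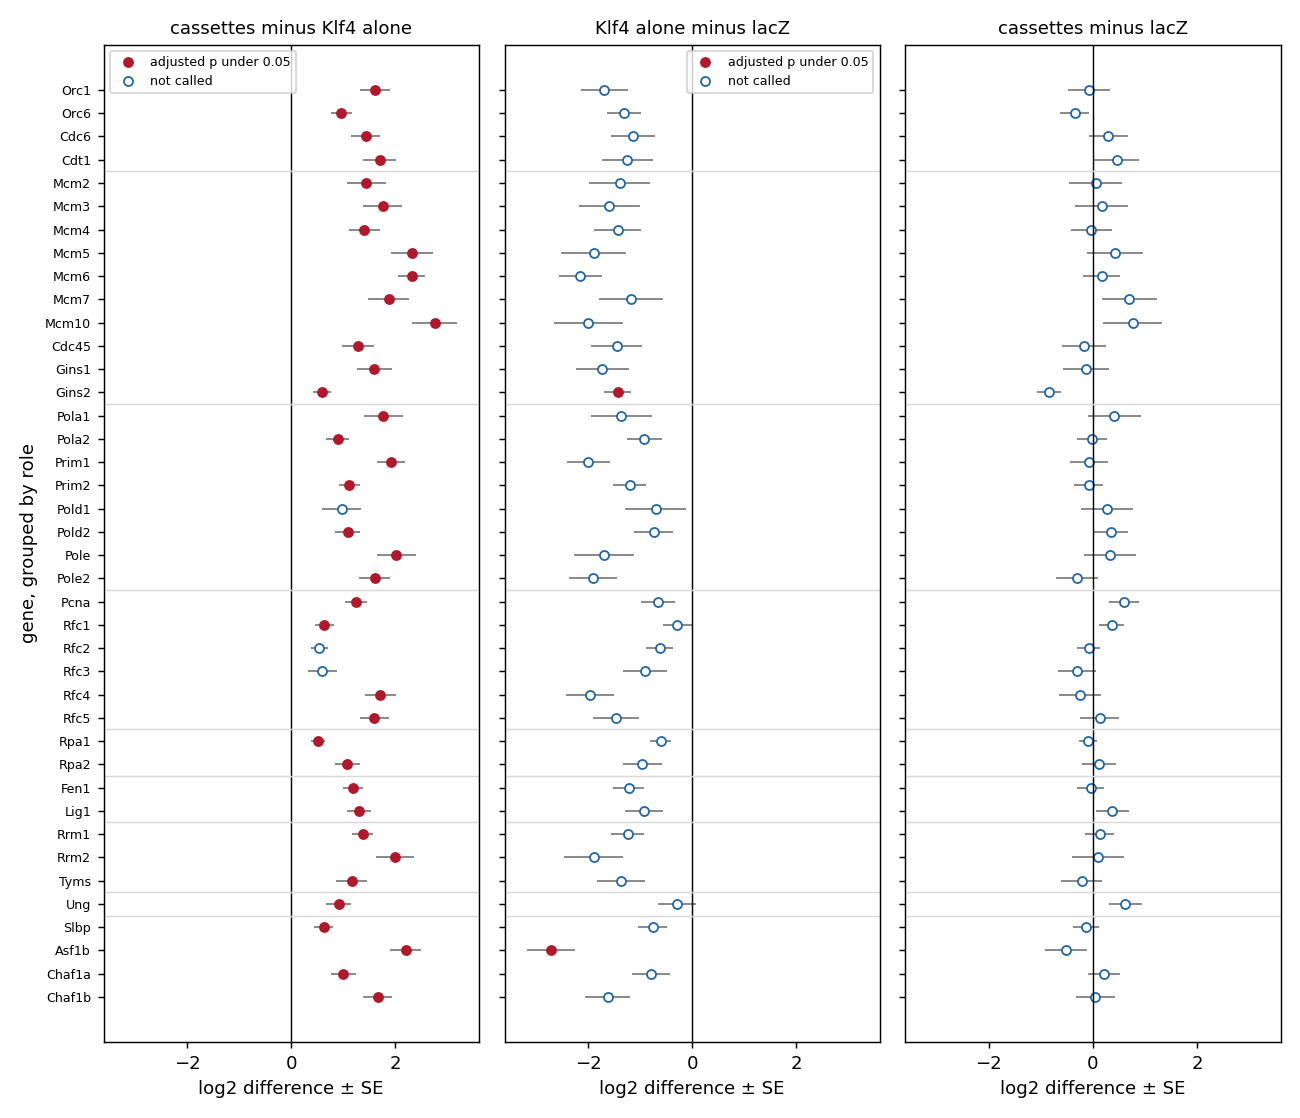
Fitted log2 difference with its SE for each of the 40 genes, grouped by role, in the 3 comparisons; filled points passed limma's adjusted p under 0.05 and open points did not. The first panel has 37 filled points right of 0, the second has all points left of 0 with Gins2 and Asf1b filled, and in the third all points are open and lie around 0.

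Against lacZ, the Klf4 constructs read lower for replication genes. All 40 fitted differences were negative, with a median of -1.34 and values from -2.71 for Asf1b to -0.28 for Rfc1, and the median over all genes was near 0. The test called 2 members, Asf1b (-2.71 ± 0.46, n = 2 against n = 1, limma adjusted p = 0.0329) and Gins2 (-1.43 ± 0.26, adjusted p = 0.0443), or 5% of the members against 0.476% of all genes called lower. The lacZ arm is 1 array, so the spread behind these p-values comes from the other groups, mostly the cassettes, and lacZ is assumed to vary like them. At an unadjusted p under 0.05 the count was 32 members lower (80%), against 6.32% of all genes. Both Klf4 arrays lay below lacZ in 39 of the 40 genes, all but Ung, and this order held for 40.6% of all genes. This comparison uses the same Klf4 arrays as the one above, so the values are set side by side and neither counts as support for the other. The largest differences after Asf1b were -2.15 for Mcm6 (adjusted p = 0.0514), -1.99 for Prim1, -1.99 for Mcm10, -1.96 for Rfc4, -1.90 for Pole2, -1.89 for Mcm5 and -1.89 for Rrm2, none of them called. Ung (-0.29) and Rfc1 (-0.28) were the nearest to 0.

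The number of members called here depended on single arrays, and lacZ has no spread of its own. It was 8 without MKOS (Orc6, Mcm5, Mcm6, Gins2, Prim1, Pole2, Rrm1 and Asf1b), 1 without OKN-HAMS (Asf1b), and 0 without OSKM, OK+9MS, WTSI, Klf4S or Klf4L and on the 3 compared arrays alone. Without STEMCCA and without EB-C5 it stayed 2, but Mcm6 and Asf1b were called and Gins2 was not. Over all genes 149 were called with every array, 268 without MKOS, 131 without OKN-HAMS, 100 without OSKM, 93 without OK+9MS, 118 without WTSI, 40 without Klf4S, 36 without Klf4L and 0 on the compared arrays alone. All differences stayed negative in these fits except that of Ung without Klf4L. On the compared arrays alone the median member difference was still -1.34, so the calls changed there and the differences did not.

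No member was called between the cassettes and lacZ. The count by limma was 0 of 40 at the adjusted threshold and 1 (Gins2, 2.5%) at an unadjusted p under 0.05, against 15.5% of all genes. The adjusted count stayed 0 under every alternative run. At the adjusted threshold 0.456% of all genes were called higher and 1.59% lower. The differences had a median of 0.07, with 22 positive and 18 negative. They ran from -0.84 ± 0.23 for Gins2 and -0.52 for Asf1b to 0.62 for Ung, 0.70 for Mcm7 and 0.76 ± 0.57 for Mcm10. The SE of these differences lay between 0.17 and 0.57. A p that misses the threshold does not show that the levels were equal.

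The constructs differed among themselves in these genes. Over the 8 cassettes the members had a median SD of 0.40, against 0.16 over all genes and 0.24 over the genes at or above the median level. MKOS gave the lowest cassette value in 35 of the 40 genes, while it is lowest in 16.4% of all genes. The other 5 were Mcm6, Rfc1 and Rfc3 (STEMCCA), Rfc4 (WTSI) and Rpa1 (OK+9MS). The highest value lay in OKMS for 22 genes and in EB-C5 for 15, or 37 of 40 together, where these constructs are highest in 13.3% and 18.6% of all genes. With 1 array a construct, these orders carry no test.

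Set against the mean of Klf4 alone, MKOS was at least 2-fold higher in 9 members, all in the set that every cassette shares, against 2.17% of all genes. The count was 34 in OKMS (5.66% of all genes) and 34 in EB-C5 (5.37%), 33 in OKN-HAMS (5.6%), 31 in WTSI (4%), 29 in STEMCCA (2.21%), 27 in OSKM (4.78%) and 27 in OK+9MS (4.33%). The median differences ran from 0.71 in MKOS to 1.87 in OKMS. The 9 genes at least 2-fold higher in every cassette were Mcm5, Mcm6, Mcm10, Prim1, Pole, Rfc4, Rfc5, Asf1b and Chaf1b, against 0.813% of all genes. In 4 members (Gins2, Rfc2, Rpa1 and Slbp) no cassette reached 2-fold. This is no special trait of these 4, since each cassette was 2-fold higher in only 2.17% to 5.66% of all genes. Most genes of the array therefore reached 2-fold in no cassette either.

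Against lacZ the cassettes fell on both sides. The median member difference was -0.52 in MKOS and 0.55 in OKMS, with 0.47 in EB-C5 and 0.24 in OKN-HAMS, and it lay between -0.11 and 0.01 in OSKM, OK+9MS, WTSI and STEMCCA. MKOS read below lacZ in 38 of the 40 genes, all but Rfc1 and Ung, and above both Klf4 arrays in 39, all but Rfc3. The shares of all genes in these 2 orders were not counted. Over all genes the median MKOS difference was -0.03 from lacZ and -0.04 from the Klf4 alone mean. MKOS was at least 2-fold below lacZ in 6 members (Cdc45, Gins1, Gins2, Pole2, Tyms and Asf1b), against 1.67% of all genes. OKMS was at least 2-fold above lacZ in 7 members (Cdt1, Mcm5, Mcm7, Mcm10, Pold2, Pole and Ung), against 3.39% of all genes, and EB-C5 in 4 (Mcm7, Mcm10, Pola1 and Pole), against 3.01%. OKN-HAMS was so in 1 (Mcm10), against 4.08%. Gins2 was at least 2-fold below lacZ in OK+9MS and STEMCCA, the 1 such member in each, against 2.33% and 1.27% of all genes. OSKM and WTSI had 0 members past 2-fold, where 4% and 2.14% of all genes were higher and 2.71% and 3.22% lower. Klf4S was at least 2-fold below lacZ in 27 members and Klf4L in 28, against 2.01% and 1.98% of all genes.

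By role, the helicase genes had the widest range of medians over the cassettes. Their median difference from lacZ was -0.83 in MKOS, 0.64 in EB-C5, 0.74 in OKMS, -1.49 in Klf4S and -1.57 in Klf4L. Polymerase and primase genes ran from -0.50 in MKOS to 0.65 in OKMS, and were -1.33 in Klf4S and -1.23 in Klf4L. The clamp and its loader ran from -0.43 in MKOS to 0.66 in EB-C5, with -0.95 in Klf4S and -0.70 in Klf4L. The 3 nucleotide supply genes stood lowest in MKOS at -0.98, next to 0.51 in EB-C5, -1.30 in Klf4S and -1.44 in Klf4L. For the clamp and loader EB-C5 was above OKMS (0.40), and for helicase, licensing and polymerase genes OKMS was above EB-C5.

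**Figure D3:**
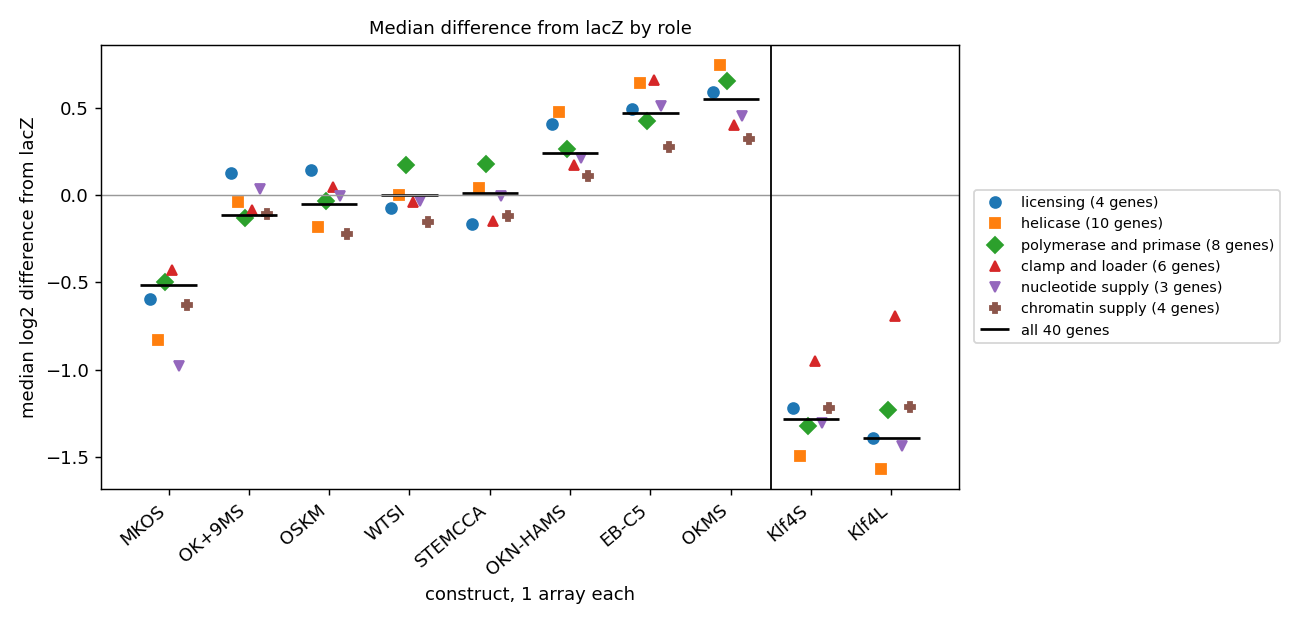
Median log2 difference from lacZ over the genes of each role (symbols) and over all 40 genes (black bars) for each construct, 1 array each, with cassettes left of the line and Klf4 alone right of it. MKOS lies below 0 in every role shown, OKMS and EB-C5 lie above 0 in every role, and the 2 Klf4 constructs lie lowest, with helicase genes at -1.49 and -1.57.

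The series sets a Klf4 form named +9 beside its partner in 2 contexts, in a cassette (OK+9MS against OKMS) and by itself (Klf4L against Klf4S). All 40 members were lower in OK+9MS than in OKMS, where 45.7% of all genes are lower, and the median difference was -0.58 against 0.01 over all genes. The largest were Pold1 (-1.12) and Pole (-1.06), the only 2 at 2-fold or more (0.878% of all genes), followed by Mcm7 (-0.95), Tyms (-0.92) and Mcm2 (-0.90), and the smallest was Mcm6 (-0.11). In Pole the pair read 10.43 in OKMS and 9.36 in OK+9MS. OKMS also held the highest cassette value in 22 of the 40 members.

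By itself the pair of Klf4 forms lay closer together, in these genes and in all genes, with an SD of the difference over all genes of 0.126 against 0.418 in the cassette pair. Klf4L minus Klf4S had a median of -0.05, with 26 members lower and 14 higher, where 56.6% of all genes are lower, 0 at 2-fold or more (0% of all genes) and 32 within 0.2. The other 8 were Ung (-0.70), Cdc6 (-0.55), Mcm10 (-0.22) and Lig1 (-0.20), lower in Klf4L, and Rfc3 (0.38), Pcna (0.29), Prim1 (0.23) and Rfc4 (0.20), higher in it. For Ung the values were 7.57 in Klf4S and 6.87 in Klf4L. Each pair is 1 array against 1, so there is no replicate check of either difference.

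**Figure D4:**
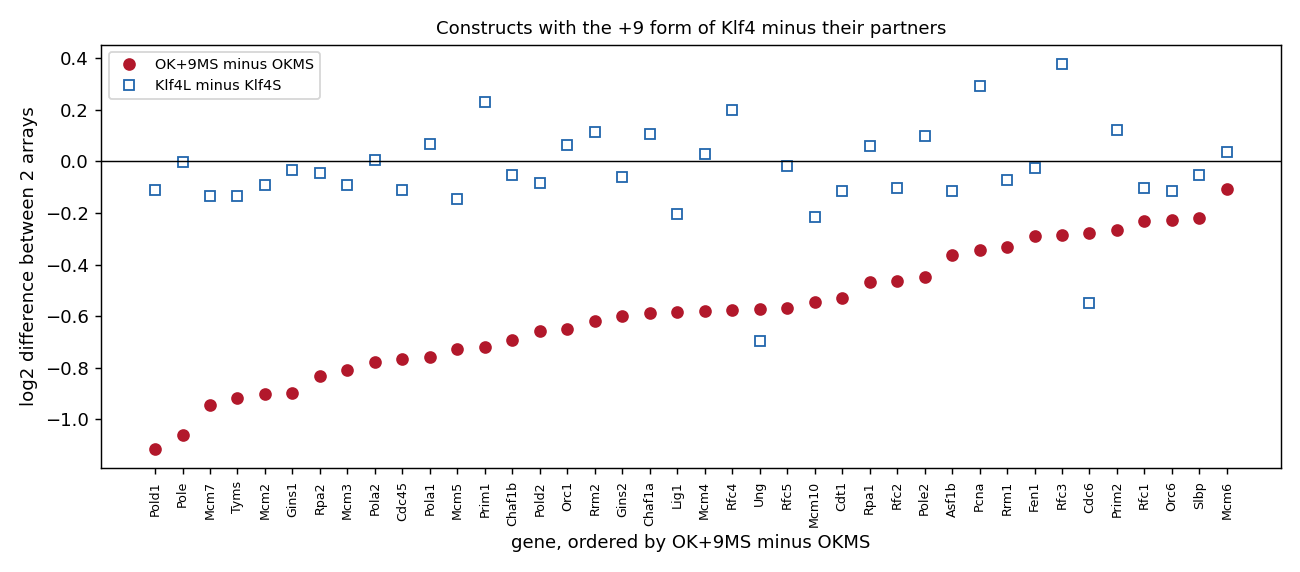
Log2 difference between 2 single arrays for each of the 40 genes, ordered by the difference in the cassette pair: OK+9MS minus OKMS (filled circles) and Klf4L minus Klf4S (open squares). All circles lie below 0, from -1.12 to -0.11, while the squares lie around 0, with Ung (-0.70) and Cdc6 (-0.55) lowest.

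A further list of replication genes outside the 40 held 34 measured genes. Of these 20 rose in the cassettes against Klf4 alone and 1 fell, with a median of 0.93. The largest were Ticrr (2.68), which brings Cdc45 to origins, the exonuclease Exo1 (2.28), the fork protein Wdhd1 (2.00) and Dbf4 (1.65), the activator of the Cdc7 kinase. Pold4, the smallest polymerase delta subunit, was the one that fell (-0.91, limma adjusted p = 0.0499). The 13 that did not pass were Orc3 (0.07), Orc4 (0.05), Gins3 (0.57), Gins4 (0.48), Recql4 (0.37), Timeless (0.58), Tipin (0.84), Pole3 (0.27), Pole4 (0.16), Dscc1 (0.66), Tk1 (1.29), Mcmbp (0.65) and Mcm9 (0.20). Without Klf4S or without Klf4L 1 of the 34 was called. Of 22 measured genes of E2F control and S-phase entry 8 rose and 1 fell, and the genes named from this list were picked after their values were seen. Those that rose were the cyclins Ccna2 (2.01) and Ccne2 (1.79), Cdc25a (1.14), Skp2 (1.15), Cdk2 (0.81) and E2f3 (0.47), which promote S-phase entry, and also Rb1 (1.17), which restrains E2F, and the repressor E2f7 (1.21). The cyclin-dependent kinase inhibitor Cdkn2b fell (-1.22). E2f1 itself read 9.26 in the cassettes, 9.56 in Klf4 alone and 9.60 in lacZ (limma adjusted p = 0.376 between the first 2).

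Marker lists differed between the groups beside these genes. Of 13 fibroblast markers 12 read above every array median on all arrays, and their mean signal was 10.53 to 11.49 in the cassettes, 11.83 to 11.84 in Klf4 alone and 10.94 in lacZ. The 5 keratinocyte markers had means of 6.69 to 9.51 in the cassettes, 9.61 to 9.87 in Klf4 alone and 6.70 in lacZ, and the 5 epithelial markers 7.73 to 11.14, 8.02 to 8.24 and 7.18. The 5 endothelial and the 5 macrophage and blood markers had list means under 7 in every group. Among the endothelial markers Tek differed from the other 4: it read 9.57 in the cassettes, 7.92 in Klf4 alone and 6.24 in lacZ and rose by 1.65 between the first 2 (limma adjusted p = 0.00367), while Pecam1, Cdh5, Kdr and Emcn were not called. Among the macrophage and blood markers there were 2 under 6 on all arrays, while 1, Cd68, read above every array median on all arrays. Cd68 had means of 8.97 in the cassettes, 8.48 in Klf4 alone and 8.19 in lacZ. The 4 neural markers had means of 7.78 to 8.63, 7.95 to 7.99 and 7.80, in the same order of groups. For the 5 germ and pluripotent markers they were 6.35 to 7.27, 6.22 to 6.25 and 6.21. In this last list Nanog differed from the other 4, with a mean of 9.46 in the cassettes, 6.63 in Klf4 alone and 6.65 in lacZ. Its difference between the first 2 groups was 2.83 (limma adjusted p = 0.0544, not called). The other 4 differed by -0.02 to 0.30. Among the epithelial and keratinocyte markers only Epcam (3.12), Sbsn (-2.41) and Cnfn (-4.00) passed this test. The part of these markers in the replication gene differences was not tested. Of 9 housekeeping genes 0 rose and 1 (Gusb, named after its value was seen) fell in the cassettes against Klf4 alone. Array medians lay between 7.188 and 7.269, and no member read under 6 on any array, the level taken here as dim.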

How the data were processed

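RNA from 11 cell populations was hybridised to 1 Affymetrix array each. The deposited values are log2 expression values made by the authors with RMA, per the submitters' processing notes; no version is given there, and RMA can understate large differences. They were used as deposited. Of 28856 probe sets 21789 had 1 gene symbol, 1621 several and 5446 none; the first gave 19938 genes, the brightest probe set standing for a gene. All 40 symbols matched current RefSeq symbols. Group differences were fitted with limma 3.58.1 in R 4.3.3 (lmFit and eBayes, 8 residual degrees of freedom) in 1 model over the 8 cassettes, 2 Klf4 constructs and lacZ, with Benjamini-Hochberg adjustment over all genes. On simulated data for 19938 genes, log2 changes of 1 and 2 were recovered in 71.5% and 99.5% of cases (cassettes against Klf4 alone), 54% and 88.5% (Klf4 alone against lacZ) and 60% and 87% (cassettes against lacZ), with 7 to 16 false calls. The simulation drew noise independently for each gene and array and changed 200 genes. The members varied together over the constructs, so these rates are not the error rates of the calls above. Single arrays were compared at 2-fold. The number of arrays limits the precision. Alternatives were the arrays compared alone, the mean of probe sets, a filter at the median level, quantile normalization, median centring, a variance trend, a 1.5-fold limit and leaving out each array. All members are named; single-array values are given for the up to 4 members per role with the largest difference between the cassettes and Klf4 alone, and for those not called. The members and lists were chosen with earlier results of these data known.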

Additional observations from a re-analysis of the deposited data

Results flagged for a closer look

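In 3 members the MKOS array stood apart as the lowest of the 8 cassettes: its gap to the nearest cassette, as a share of the range of the 8, exceeded Dixon's 95% critical value for 8 samples. For Mcm5 MKOS read 9.43 and the nearest cassette 10.485, a share of 0.539. For Rrm2 MKOS read 10.5 and the nearest cassette 11.5, a share of 0.532. For Asf1b MKOS read 9.59 and the nearest cassette 10.3, a share of 0.549. Chance flags about 1 in 20 groups, and 9.34% of all genes had a cassette that stood apart in this way. The 3 of 40 members flagged are no more than that share. The cause was not tested.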

How the results depend on the processing

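All 40 differences between the cassettes and Klf4 alone stayed positive under every alternative that measured the gene. The number called was 34 to 37 under other settings and 1 to 38 leaving out single arrays, 1 being the count without Klf4S or Klf4L. For Klf4 alone against lacZ it was 0 on the compared arrays alone, 1 under quantile normalization and 0 to 8 leaving out arrays; the median difference was -1.37 under centring and -1.39 to -1.28 leaving out arrays. Of the other replication genes 1 to 23 were called leaving out arrays for the cassettes against Klf4 alone, 0 to 1 for Klf4 alone against lacZ and 0 to 1 for the cassettes against lacZ. Signs against lacZ turned for members near 0. Under centring Chaf1b was -0.00691 and Mcm2 -0.00283, and under quantile normalization Mcm4 was 0.00663 and Pola2 0.00521. Leaving out arrays gave -0.0459 to 0.137 for Chaf1b, -0.101 to 0.0277 for Fen1, -0.0513 to 0.190 for Mcm2, -0.111 to 0.0818 for Mcm4, -0.155 to 0.0179 for Orc1, -0.0984 to 0.0457 for Pola2, -0.153 to 0.0153 for Prim1, -0.0131 to 0.247 for Rrm2 and, for Klf4 alone, -0.636 to 0.0625 for Ung. With 1.5-fold in place of 2-fold, members lower numbered 19 in OK+9MS against OKMS (3.63% of all genes) and 1 in Klf4L against Klf4S (0.0301%), and 24 were higher in MKOS than in Klf4 alone (5.2%). Against lacZ the members higher were then 19 in OKMS (8.23% of all genes), 15 in EB-C5 (8%), 8 in OKN-HAMS (8.64%), 4 in WTSI (5.66%), and 2 each in OK+9MS (7.3%), OSKM (7.91%) and STEMCCA (4.11%). The members lower were 19 in MKOS (5.61%), 3 each in STEMCCA (4.81%) and WTSI (9.24%), and 1 each in EB-C5 (10.4%), OK+9MS (7.53%), OKN-HAMS (11.2%) and OSKM (7.8%). STEMCCA had 0 at 2-fold under quantile normalization. No paired analysis was possible because the labels carry no replicate numbers. The causes were not tested. Each construct has 1 array, and lacZ has 1 in all, so construct and array cannot be told apart.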
